A study of Mus musculus with 64 samples.

Results

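The genes described here are the 69 axon guidance ligands and receptors of the mouse genome whose symbols belong to the class 3 to 7 semaphorins, plexins, neuropilins, netrins, Dcc, Unc5 receptors, Slits, Robo receptors, ephrins and Eph receptors. They were chosen by symbol and by protein-coding annotation in GENCODE, with no measured value, and make up 69 of the 18432 genes in the table. All 69 annotated genes that match were measured: 20 semaphorins, 9 plexins, 2 neuropilins, 4 netrins, Dcc, 4 Unc5 receptors, 3 Slits, 4 Robo receptors, 5 ephrin-As, 9 EphA receptors, 3 ephrin-Bs and 5 EphB receptors. Bulk RNA sequencing compared mice carrying an Arg87Cys knock-in allele of Cyfip2 on 1 chromosome (KI) with wild-type littermates (WT), all on the C57BL/6N strain, to follow the brain as seizures evolve in this model of West syndrome. Frontal cortex and hippocampus, pooled from the 2 hemispheres of a mouse, were taken at postnatal week (PWK) 1, 7, 14 and 28, which gave 16 groups of 4 libraries, 64 in all. CYFIP2 is a subunit of the WAVE complex, which drives branching of actin filaments. Each combination of age and genotype had 4 mice, each of which gave a cortex and a hippocampus. The study used males and females, and the labels do not give the sex of the mice. The balance of the sexes between the groups is therefore unknown, also for the X-linked members Efnb1, Plxna3 and Plxnb3.

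Axon guidance works through secreted or membrane-bound cues that are read by receptors on the growth cone, the moving tip of an axon. Semaphorins signal through plexins, for most class 3 members with a neuropilin as coreceptor. Netrins attract through Dcc and repel through Unc5 receptors. Slits repel through Robo receptors, and ephrins, which are themselves anchored in a membrane, signal in both directions when they meet Eph receptors on another cell. In the adult cortex and hippocampus many of the same genes remain expressed and take part in synapse and spine maintenance. Values are normalized counts, that is, the estimated reads of a gene divided by a scaling factor per library, and they compare a gene between libraries. They do not compare genes of different length, for which levels per kilobase of exon are given.

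No member was at 0 in any library. Over all 64 libraries 52 of the 69 members lay above the median gene, at a median percentile of 72.9 by normalized count and 60.4 per kilobase. The highest levels per kilobase belonged to Epha4 (1281), Sema7a (1264), Efnb3 (1217), Ephb6 (928) and Slit1 (912), and the lowest to Epha1 (1.63), Epha2 (9.43) and Efna4 (11). Epha1 averaged only 6.41 normalized counts and Efna4 17.7, so that their fold changes carry large errors. Nrp1, Ntn3, Plxnc1 and Sema4a share exonic sequence with another annotated gene on the same strand (Mir1903, Tbc1d24, Gm48718 and Mir7011, respectively), and 15 members overlap one on the opposite strand.

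Library totals of normalized counts ran from 29225576 to 32601227, with a median of 31051098. The raw depth of each library was not analysed here. Cyfip2 itself was called in KI against WT in the cortex at PWK 28 (log2 fold change -0.44, adjusted p = 0.0058) and in none of the other 7 comparisons, although KI also lay below WT without overlap in the cortex at PWK 14 (-0.33, adjusted p = 0.0539) and above it at PWK 7 (0.11, adjusted p = 0.416). The mutation changes an amino acid and gene totals do not separate the alleles, so this value checks no label. At every age 4 or 5 of 5 dentate granule markers and 2 of 3 CA3 markers were higher in WT hippocampus and 5 of 6 cortical layer markers higher in WT cortex. Besides, 2 libraries were taken as standing apart by markers of other cell types. Hippocampal KI replicate 1 at PWK 14 held 15373 normalized counts summed over 5 oligodendrocyte precursor markers, against 6272 to 6952 in the other 3. That library also held 309747 over astrocyte markers against 208529 to 217873 and 13565 over microglial markers against 6019 to 8201. Its pericyte and fibroblast sum was 9061 against 6143 to 6314. Its dentate granule sum was lower, at 9853 against 13312 to 15513. Cortical WT replicate 2 at PWK 28 held 21346 over 4 choroid plexus and ependymal markers, against 415 to 893. The same choroid plexus sum varied between 496 and 124137 among the 32 hippocampal libraries. Counts of members called without those 2 libraries stand beside each comparison that uses them. Counts combined over the KI and WT comparisons at PWK 14 and 28 keep all libraries. Other libraries also departed from their group. Cortical WT replicate 1 at PWK 1 held 155967 over neuron markers against 180314 to 182801. Its cortical layer sum was 14983.5 against 18365 to 19079, and its interneuron sum 11343 against 7909 to 9255. Without it, 62 members were called from PWK 1 to PWK 7 in WT cortex and 48 between the WT regions at PWK 1.

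Of the 7 members that later passed the test in at least 3 of the 4 KI and WT comparisons at PWK 14 and 28, the promoters of Sema4a and Ephb6, which were higher in KI, and of Plxna3, Sema6c and Ephb2, which were lower, are shown to set upstream sequences of genes that moved in either direction side by side. Plxna1 and Dcc, the other 2, are not shown. Each is the 250 bases before the RefSeq transcription start nearest to the GENCODE gene start (GRCm38.p6), written 5′ to 3′ on the strand of the gene. Capitals mark matches on either strand to any of 5 motifs. The first is the CCAAT box, searched as these letters. The letters of the AP-1 site were TGANTCA. A GC box was read as GGGCGG on either strand. The E-box searched was CACGTG. The cAMP response element, or CRE, was searched as TGACGTCA. Adjoining or overlapping matches run together.
Sema4a: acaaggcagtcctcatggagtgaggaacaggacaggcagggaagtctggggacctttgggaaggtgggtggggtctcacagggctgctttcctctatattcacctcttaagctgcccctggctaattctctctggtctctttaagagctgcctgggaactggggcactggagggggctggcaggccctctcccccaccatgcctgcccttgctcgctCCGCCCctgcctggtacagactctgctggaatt
Ephb6: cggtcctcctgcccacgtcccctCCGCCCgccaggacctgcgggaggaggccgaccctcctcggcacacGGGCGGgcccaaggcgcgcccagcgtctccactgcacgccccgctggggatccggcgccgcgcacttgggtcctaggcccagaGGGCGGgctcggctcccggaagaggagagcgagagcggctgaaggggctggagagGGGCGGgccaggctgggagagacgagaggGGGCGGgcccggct
Plxna3: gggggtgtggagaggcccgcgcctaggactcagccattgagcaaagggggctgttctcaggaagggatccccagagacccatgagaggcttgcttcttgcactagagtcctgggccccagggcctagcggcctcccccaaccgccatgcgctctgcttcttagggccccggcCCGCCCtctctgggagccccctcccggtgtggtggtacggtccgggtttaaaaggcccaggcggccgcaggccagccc
Sema6c: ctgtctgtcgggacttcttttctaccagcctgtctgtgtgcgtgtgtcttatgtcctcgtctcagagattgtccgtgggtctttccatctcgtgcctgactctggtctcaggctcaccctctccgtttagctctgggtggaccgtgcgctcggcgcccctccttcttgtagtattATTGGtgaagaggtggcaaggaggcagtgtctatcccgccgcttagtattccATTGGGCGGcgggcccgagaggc
Ephb2: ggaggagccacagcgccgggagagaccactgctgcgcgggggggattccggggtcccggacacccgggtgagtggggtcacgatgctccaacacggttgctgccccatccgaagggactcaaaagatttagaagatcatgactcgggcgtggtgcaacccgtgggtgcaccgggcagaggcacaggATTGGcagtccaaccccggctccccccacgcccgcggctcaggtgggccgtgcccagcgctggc

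The windows lie at chr3:88461183-88461432 (- strand) for Sema4a, chr6:41605261-41605510 (+ strand) for Ephb6, chrX:74328816-74329065 (+ strand) for Plxna3, chr3:95160170-95160419 (+ strand) for Sema6c and chr4:136836013-136836262 (- strand) for Ephb2. For Sema4a and Plxna3 they end at the GENCODE gene start. The Sema6c and Ephb2 windows stop 37 and 24 bases before it, and the Ephb6 window runs 29 bases into the annotated gene. Their GC content was 59.6%, 76.8%, 68%, 57.6% and 68.4%, respectively, against a mean of 59.4% over 12957 promoters. Ephb6 held 5 GC boxes, Sema4a and Plxna3 held 1 each, Sema6c held 1 GC box and 2 CCAAT boxes of which 1 overlaps the GC box, and Ephb2 held 1 CCAAT box. No window held a CRE, an AP-1 site or an E-box. The 59 members with a promoter in the table had a mean GC content of 64.3%, against 59.4% over all promoters. Of these members, 72.9% held a GC box, against 55.8% of all promoters. CCAAT boxes were found in 27.1% of them against 36%, E-boxes in 3.39% against 7.92%, AP-1 sites in 1.69% against 4.24% and CREs in 1.69% against 2.52%. These matches describe letters only.

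The first comparison followed WT tissue from PWK 1, when axons and synapses still form, to PWK 7. Most guidance genes fell. In the cortex 46 of the 69 members were lower at PWK 7 and 14 higher, beside 32.7% and 32.5% of all genes tested (65.3% together), and in the hippocampus 40 were lower and 17 higher, beside 30.4% and 30.9% (61.3% together). The median change of the members was -0.48 on the log2 scale in the cortex and -0.39 in the hippocampus, where the median of all genes tested was 0.01 in both. The fall took 37 members in both regions, 10 rose in both, 5 were called in opposite directions, 13 in 1 region alone and 4 (Efna1, Sema3b, Sema6b and Sema7a) in neither. Of all genes tested, 24.4% fell in both regions, 23.6% rose in both, 1.96% were called in opposite directions, 26.7% in 1 region and 23.3% in neither. Here and below a gene is called at an adjusted p under 0.05 in a limma fit of the compared libraries, errors on log2 fold changes are standard errors, fold changes are of the normalized count plus 1, which understates those of low genes, and errors on means are SDs with n = 4. In bulk tissue, fewer cells of a type and less RNA per cell cannot be told apart.

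Among the ligands, 13 of 20 semaphorins fell in the cortex and 11 in the hippocampus. Sema4g, a membrane-bound class 4 semaphorin, fell most in the cortex, from 3245, 4136, 3374 and 3714 normalized counts in the 4 WT libraries at PWK 1 to 798, 859.5, 856 and 757 at PWK 7 (log2 fold change -2.14 ± 0.08, adjusted p = 4.97e-10). The hippocampal change was -1.85. Sema6c and Sema6a, transmembrane class 6 semaphorins, changed by -1.93 and -1.60 in the cortex and by -1.28 and -1.01 in the hippocampus. All 3 thus lost a large share of their early level in both regions. The 3 ephrin-Bs fell in both regions, led by Efnb3 in the cortex (log2 fold change -1.45 ± 0.08, adjusted p = 1.3e-08). Efna2 and Efna4, GPI-anchored ephrin-As, changed by -1.77 and -1.88 in the cortex and -1.41 and -1.97 in the hippocampus.

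Netrin-5 went the other way. Ntn5 held 8.19, 2.11, 1.61 and 0.929 normalized counts in the 4 cortical WT libraries at PWK 1 and 31.8, 34.7, 58.8 and 60.6 at PWK 7 (log2 fold change 3.72 ± 0.47, adjusted p = 2.06e-05). In the hippocampus it held 3.96, 7.82, 7.58 and 5.89 and then 113, 129, 165 and 142 (log2 fold change 4.26 ± 0.24, adjusted p = 4.26e-08). The groups did not overlap in either region, and the early values were close to the detection limit. The other netrins did not follow it: Ntn1 changed by -0.74 and -0.86 and Ntn3 by -0.46 and -0.57 in cortex and hippocampus, all 4 called.

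Of the receptors, Plxna1 and Plxna3, which form holoreceptors for class 3 semaphorins with neuropilins, were among those that fell. Plxna1 dropped from 14118 ± 2254 to 4094 ± 86.6 normalized counts in the cortex (log2 fold change -1.77 ± 0.10, adjusted p = 1.55e-08) and changed by -0.79 in the hippocampus. Plxna3 changed by -1.54 and -1.63, and the ephrin-B receptor Ephb2 by -1.78 and -1.36. Epha8 fell more in the hippocampus (-2.08) than in the cortex (-1.36), and this difference was called (difference -0.71 ± 0.20, adjusted p = 0.0169). The receptors that rose in both regions were fewer. Plxnb3, a plexin of oligodendrocytes, rose from 306 ± 94.1 to 898 ± 122 in the cortex (log2 fold change 1.59 ± 0.18, adjusted p = 7.7e-06) and from 333 ± 93.8 to 1127 ± 113 in the hippocampus (log2 fold change 1.79 ± 0.17, adjusted p = 3.64e-06). Unc5b rose by 1.30 and 0.99, Epha10, which lacks kinase activity, by 0.82 and 1.56, and Epha6 by 0.86 and 0.72. Over the same interval all 6 oligodendrocyte markers rose and all 5 oligodendrocyte precursor markers fell in both regions. Immature neuron markers summed to 15934 to 21607 normalized counts in WT cortex at PWK 1 and 2900 to 3151 at PWK 7. In WT hippocampus they summed to 18164.5 to 22154.5 and then 2461 to 2655. The Cajal-Retzius sum also fell without overlap in both regions, and the interneuron and astrocyte sums rose without overlap. The part of these cell types in the changes of Plxnb3 and the other members was not tested.

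**Figure D1:**
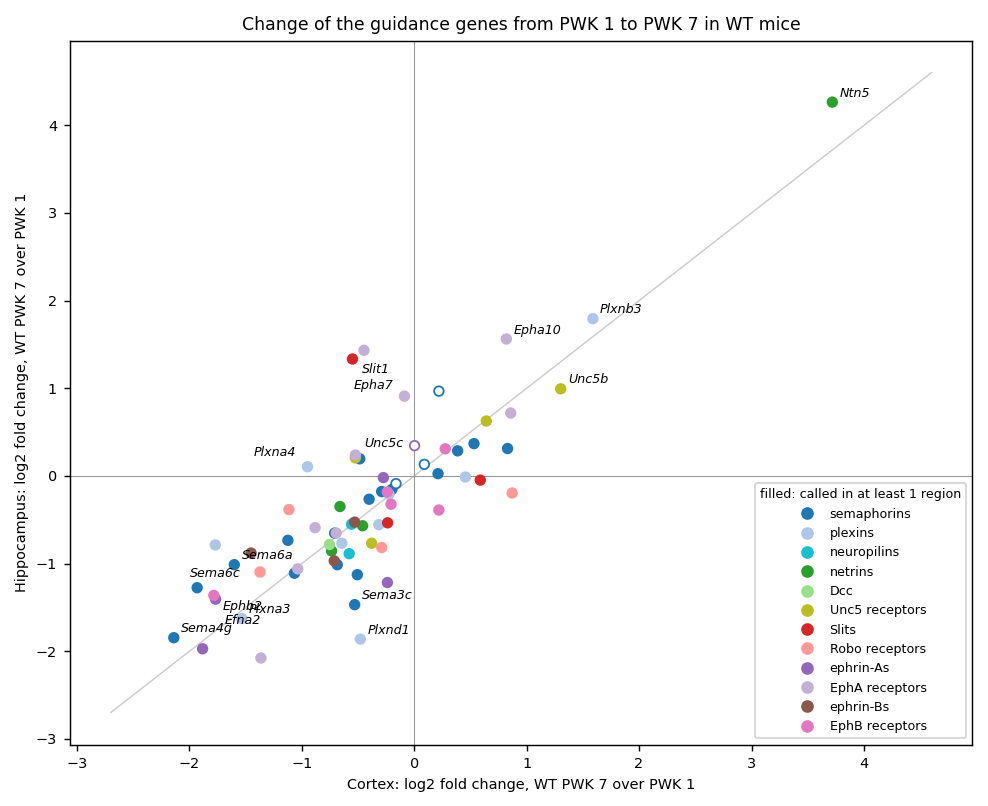
Log2 fold change of each of the 69 genes from PWK 1 to PWK 7 in WT cortex (horizontal axis) and WT hippocampus (vertical axis), 4 libraries per group, with colour by family, filled points for genes called in at least 1 region and a grey line of equal change. Most points lie below 0 on both axes, Ntn5 lies far above, and Slit1 lies below 0 in the cortex and above it in the hippocampus.

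The regions matured differently for part of the set. A test of the difference in the PWK 1 to PWK 7 change between hippocampus and cortex, added after these values were seen, called 14 members higher and 13 lower, beside 11.5% and 9.77% of all genes (21.3% together). Slit1, a secreted repellent read by Robo receptors, differed most by p (difference 1.88 ± 0.11, adjusted p = 4.26e-09). It held 3327, 3016, 2999 and 3069 normalized counts in the cortex at PWK 1 and 1881, 2201, 2213 and 2195 at PWK 7, and 4328, 3838, 4114 and 4579 and then 10789, 12496, 9385 and 9987 in the hippocampus. Slit1 thus fell in the cortex and rose in the hippocampus. Plxna4, Epha7 and Unc5c also had a higher change in the hippocampus (differences of 1.05, 1.00 and 0.73). Plxna4 went from 7963 ± 740.3 to 4109 ± 120 normalized counts in the cortex and from 8194 ± 188 to 8819 ± 462 in the hippocampus, where its call was lost in the following fits: Plxna4 (without PWK 1 WT 1, 2, 3 or 4 or PWK 7 WT 1, 2 or 4, adjusted p up to 0.126).

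Sema3c and Plxnd1, a secreted semaphorin and the plexin it can bind, showed the opposite difference, a deeper fall in the hippocampus. Sema3c went from 2232, 2633, 2369 and 2348 to 886, 873, 836 and 858 in the hippocampus and from 1432, 1625, 1629 and 1649 to 1100.1, 1059, 1146 and 1075 in the cortex (difference -0.94 ± 0.08, adjusted p = 2.05e-07). The order of the regions for Sema3c was reversed between these ages. Plxnd1 fell by 1.86 on the log2 scale in the hippocampus and by 0.48 in the cortex (difference -1.38 ± 0.15, adjusted p = 3.46e-06).

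From PWK 7 to PWK 28 fewer members changed in WT. In the cortex 10 members rose and 17 fell, beside 10.9% and 11.4% of all genes (22.2% together), and in the hippocampus 1 rose and 25 fell, beside 6.35% and 8.38% (14.7% together). The median change of the members was -0.07 and -0.19. In the cortex Epha8 (log2 fold change -0.90 ± 0.14, adjusted p = 0.000962) and Robo4, a Robo of blood vessels (-0.81), fell most, followed by Slit2 (-0.63), Sema6a (-0.57), Plxnd1 (-0.48) and Ephb4 (-0.43). Those that rose included Ntn5 (0.74), Nrp1 (0.52), Epha10 (0.51) and Sema4a (0.45). Hippocampal falls were led by Sema6a (log2 fold change -0.66 ± 0.07, adjusted p = 0.000326), Robo4 (-0.53), Epha7 (-0.50), Sema5a (-0.47), Sema4c (-0.41), Epha6 (-0.41), Sema6d (-0.38) and Nrp2 (-0.38). Epha10 was the 1 member that rose there (0.29). Of the genes named here, the calls lost without single libraries were Ephb4 (without PWK 28 WT 3 or PWK 7 WT 2, 3 or 4, adjusted p up to 0.0592) and Ntn5 (without PWK 28 WT 1, 2 or 3 or PWK 7 WT 1 or 2, adjusted p up to 0.122) in the cortex and Epha10 (without PWK 28 WT 1 or 2 or PWK 7 WT 1 or 4, adjusted p up to 0.07), Epha6 (without PWK 28 WT 1 or 4 or PWK 7 WT 1, 2 or 4, adjusted p up to 0.073) and Sema4c (without PWK 28 WT 2, 3 or 4 or PWK 7 WT 2, 3 or 4, adjusted p up to 0.0746) in the hippocampus. Without cortical WT replicate 2 at PWK 28, 24 members were called in the cortex, and Ntn5, Sema5a and Unc5d were lost. The counts depend on the libraries fitted, since a fit of all 64 libraries called 15 in the cortex and 12 in the hippocampus. Endothelial markers summed to 3210 to 4036 normalized counts in WT cortex at PWK 7 and 2212 to 2679 at PWK 28. In WT hippocampus they summed to 2957 to 3026 and then 2010 to 2522. The interneuron sum rose without overlap in the cortex. The part of these cell types in the changes of the members was not tested.

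The second comparison set hippocampus against cortex within WT at each age. Between 44 and 54 of the 69 members differed: 26 were higher and 18 lower in the hippocampus at PWK 1, 30 and 17 at PWK 7, 32 and 22 at PWK 14 and 30 and 22 at PWK 28. Of all genes 34.7%, 40.8%, 34.6% and 37.8% differed, with 16.1%, 20.4%, 17.0% and 18.8% higher and 18.6%, 20.4%, 17.6% and 19.0% lower in the hippocampus. Of the members, 20 were higher in the hippocampus at all 4 ages, 11 were lower at all 4, 6 (Epha2, Ntn1, Ntn3, Plxna3, Sema4f and Sema6b) differed at none, and Sema3c and Sema6c changed sides. Of all genes these patterns took 7%, 8.21%, 37.3% and 3.09%, respectively. Without cortical WT replicate 2 at PWK 28, which stood apart, 54 members differed at that age, 32 higher and 22 lower, and Ephb1, 1 of the 11 lower at all ages, was lost. At PWK 1 the split between higher and lower calls depends on scaling: after scaling each library to its total, 29 were higher and 13 lower. Cortex and hippocampus came from the same mice, but the labels do not tie libraries to animals, so the fits treat them as independent. At PWK 1 the deviations of all 4 pairs of WT libraries with the same number correlated above 0.1. Cortical replicate 1 nevertheless correlated better with another hippocampal number than with its own (own number 0.102). At that age a fit with the replicate number as a block called 43 members, with Efna3 lost (adjusted p = 0.0527).

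Both neuropilins were higher in the hippocampus. Nrp2 held 897, 915, 817 and 737 normalized counts in the cortical WT libraries at PWK 7 and 3488, 3402, 2991 and 3352 in the hippocampal ones (log2 fold change 1.98 ± 0.07, adjusted p = 5.52e-09). The log2 fold change of Nrp1 was 2.19, 2.20, 1.74 and 1.42 from PWK 1 to 28. The difference of Nrp2 was 2.28, 1.98, 1.75 and 1.51 on the same scale. The gap of both was thus present at all 4 ages. Its change from PWK 1 to PWK 7 was not called for Nrp1 (difference 0.01 ± 0.08, adjusted p = 0.962) or Nrp2 (-0.31 ± 0.26, adjusted p = 0.446, limma). Its change after PWK 7 was not tested. Epha6, an ephrin-A receptor, held 477, 434, 422 and 522 in the cortex and 2031, 2274, 1941 and 2214 in the hippocampus at PWK 7 (log2 fold change 2.19 ± 0.08, adjusted p = 4.24e-09). Sema3e (1.76) and Sema5a (1.43) were also among the largest differences at that age, as were Ntn5 (1.59) and Epha7 (1.29). On the log2 scale Slit1 was 0.44 higher at PWK 1 and 2.32, 2.19 and 1.99 higher later on. Dcc, the netrin receptor, was higher in the hippocampus by 1.02, 1.00, 0.92 and 0.99. Sema3b at PWK 28 (1.97) and Efna4 at PWK 1 and 14 (1.03 and 1.44) joined the leading genes at single ages, as did Epha1 at PWK 28 (1.44) and Slit3 at PWK 1 (1.75).

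Sema3a, a secreted repellent read by Nrp1 with class A plexins, was the most cortical member at all 4 ages. At PWK 7 it held 715, 654, 672 and 746 in the cortex and 99, 97.1, 181 and 115 in the hippocampus (log2 fold change -2.54 ± 0.17, adjusted p = 4.04e-07). Sema3a and its coreceptor gene Nrp1 thus differed between the regions in opposite directions. Efna5 (-1.15, -2.12, -2.16 and -1.89), Ephb6 (-1.50, -1.46, -1.40 and -1.25) and Sema4a (-0.74, -0.93, -1.11 and -1.36) were lower in the hippocampus at every age as well. Plxnd1 differed by -1.93 at PWK 7, Robo2 by -0.97 at PWK 1 and Robo3 by -1.02 at PWK 28, and Efnb2 (-0.95) and Epha8 (-1.05) at PWK 7 were lower too. Markers of choroid plexus and ependymal cells, all 4 of them, were higher in the hippocampus at every age. Their part in the regional differences was not tested.

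**Figure D2:**
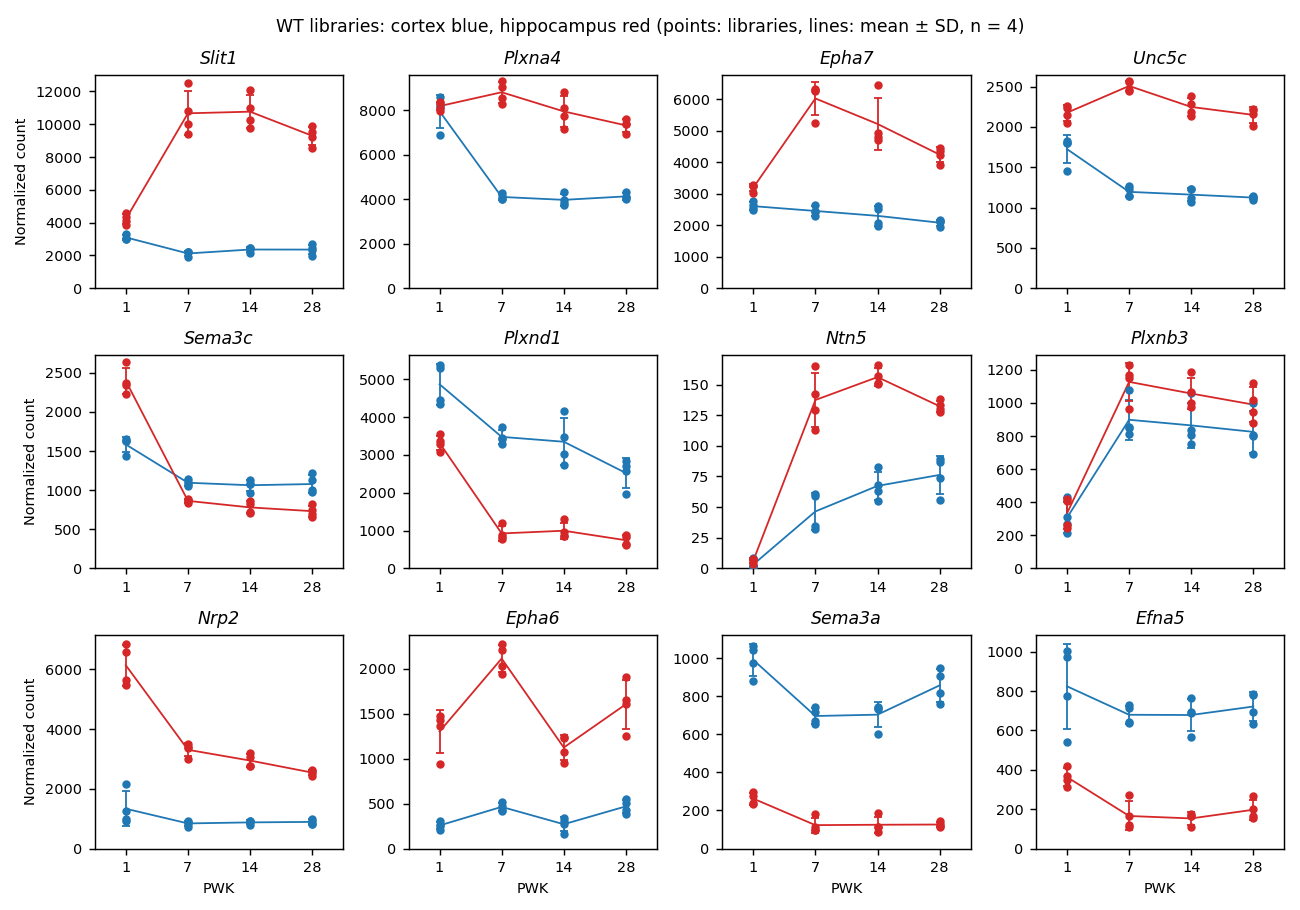
Normalized counts (vertical axes, linear from 0) of 12 guidance genes in WT libraries against PWK 1, 7, 14 and 28 (horizontal axes, evenly spaced), cortex in blue and hippocampus in red, points for libraries and lines for the mean ± SD of 4. Slit1 rises after PWK 1 in the hippocampus alone, Plxna4 falls in the cortex alone, Ntn5 and Plxnb3 rise in both regions, and Sema3a and Efna5 stay higher in the cortex.

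The third comparison, KI against WT at each age and region, addressed how the set behaves from the neonatal spasms of these mice, through a seizure-free juvenile period, to the recurrent seizures that begin at about PWK 14. No member was called at PWK 1 or PWK 7 in either region (limma). At an unadjusted p under 0.05 there were 6 members in the cortex and 5 in the hippocampus at PWK 1, and 14 and 9 at PWK 7, where 5.27%, 5.46%, 8.05% and 6.22% of all genes passed that level. The share of all genes called was 0.00546% and 0.0109% at PWK 1 and 0.00545% and 0.0218% at PWK 7.

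At the later ages guidance genes moved in both directions. In the cortex 3 members were higher and 3 lower in KI at PWK 14, and 12 higher and 14 lower at PWK 28. Of all genes 2.48% were higher and 2.70% lower at PWK 14 (5.18% together), and 12.2% and 10% at PWK 28 (22.2% together). In the hippocampus 8 were higher and 8 lower at PWK 14, and 8 higher and 12 lower at PWK 28. The shares of all genes were 7.64% higher and 7.95% lower at PWK 14 (15.6% together), and 8.92% and 6.91% at PWK 28 (15.8% together). As shares of the 69 members these are 8.7%, 37.7%, 23.2% and 29%. There was no overlap between the genotypes for 14, 25, 19 and 15 members, or 20.3%, 36.2%, 27.5% and 21.7% of them, beside 14.2%, 25.8%, 23.8% and 21.5% of all genes. Members had a median change of -0.09, -0.05, 0.02 and 0.00, against medians of all genes between -0.00339 and 0.00602.

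Of the 69 members, 43 were called in at least 1 of these 4 comparisons and none was called higher in 1 and lower in another, beside 37.1% and 0.661% of all genes. Sema4a was called in all 4 and Ephb6, Dcc, Plxna1, Plxna3, Sema6c and Ephb2 in 3 each, 10 members in 2 and 26 in 1. Of all genes 1.2% were called in all 4, 4.24% in 3, 9.7% in 2 and 22% in 1. In the hippocampus 12 members were called at both ages, all with the same sign, and in the cortex 2, beside 7.2% and 3.67% of all genes. The ages come from different mice, while the regions come from the same ones. Ligand families had 5, 10, 9 and 11 of 35 members called in cortex at PWK 14 and 28 and hippocampus at PWK 14 and 28, and receptor families 1, 16, 7 and 9 of 34. At PWK 14 the hippocampal call count was 20 without KI replicate 1, which stood apart, and 10 without WT replicate 2. At PWK 28 the cortical count was 23 without WT replicate 2, which stood apart, and Ephb2, Plxnb3, Sema3e and Sema6c were lost. At PWK 14 in the cortex, where 4 of 6 calls were lost in at least 1 fit without a library, the count was 2 without KI replicate 2 or WT replicate 1 and 3 without WT replicate 2, 3 or 4.

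**Figure D3:**
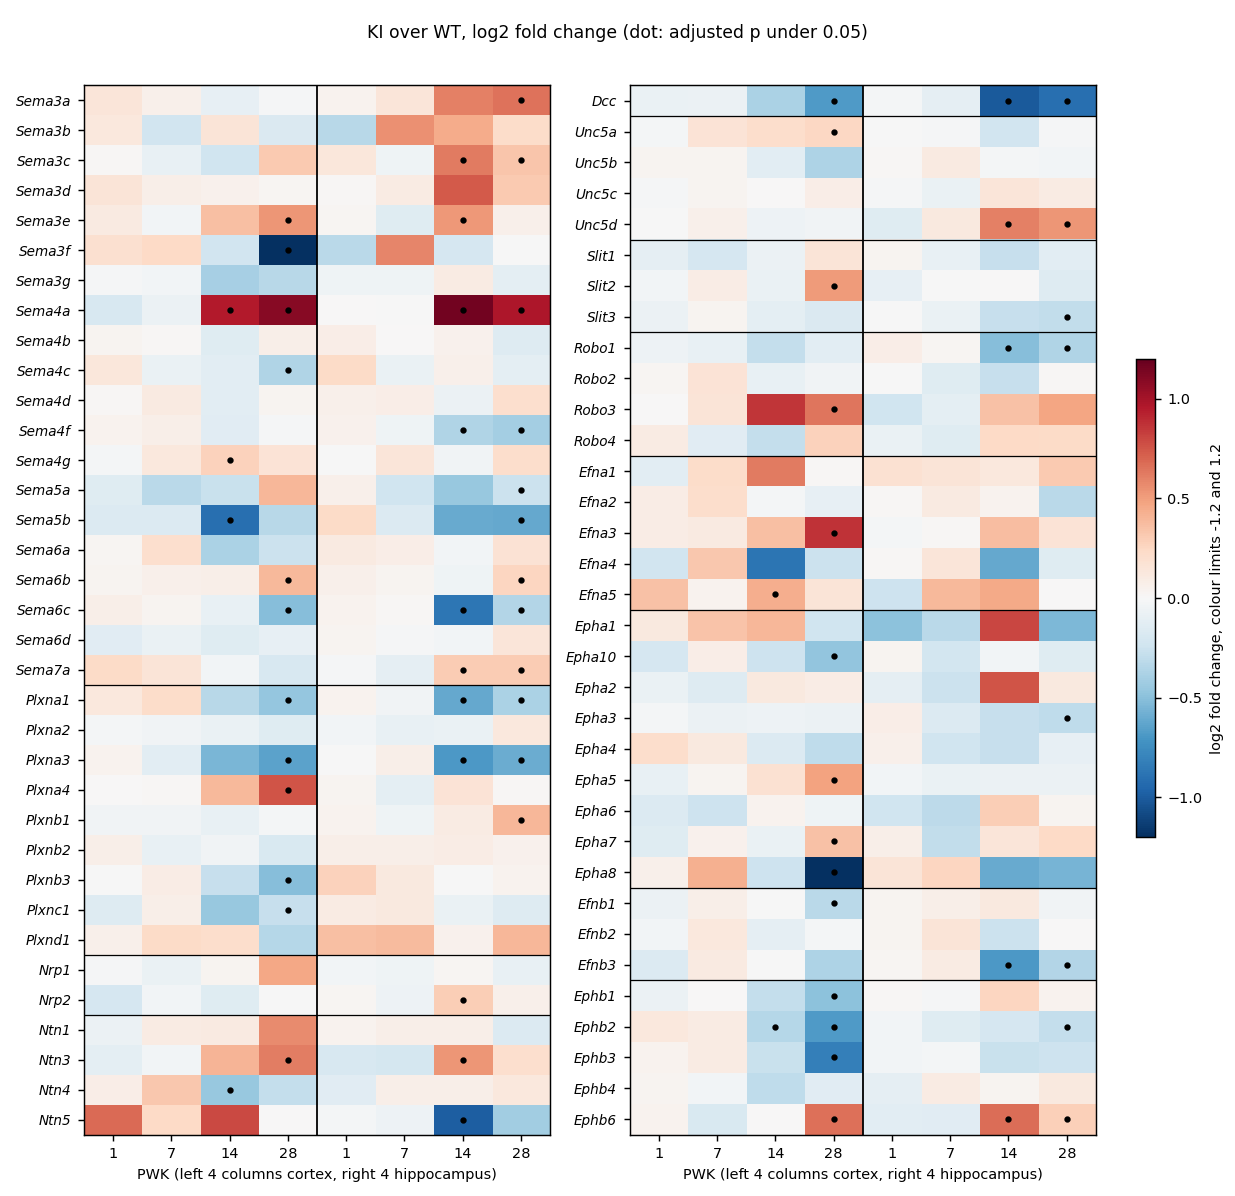
Log2 fold change of KI over WT for each of the 69 genes (rows, grouped by family and separated by lines) in cortex and hippocampus at PWK 1, 7, 14 and 28 (columns), red for higher and blue for lower in KI with colours limited at -1.2 and 1.2, and dots for genes called. There is no dot at PWK 1 or 7, and Sema4a has a dot in all 4 late columns.

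Semaphorins carried the largest increase. Sema4a, a membrane-bound semaphorin best known from immune cells and the retina, was higher in KI at both late ages in both regions. At PWK 14 its cortical normalized counts were 1906, 1952, 1983 and 1994 in the WT libraries and 4957, 4124, 3081 and 3230 in the KI libraries (log2 fold change 0.95 ± 0.13, adjusted p = 0.00328). The values at PWK 28 were 1845, 2153, 2004 and 2072 in the WT libraries and 4357, 4489.7, 4719 and 3701 in the KI libraries (log2 fold change 1.09 ± 0.08, adjusted p = 5.19e-05). Every KI library lay above every WT library at both ages. In the hippocampus at PWK 14 Sema4a held 865, 930.4, 989 and 847 in the WT libraries and 1789, 1962, 2450.3 and 1943 in the KI libraries (log2 fold change 1.16 ± 0.10, adjusted p = 0.000405). By PWK 28 it held 866, 759, 743 and 783 in the WT libraries and 1672, 1604, 1635 and 1274 in the KI libraries (log2 fold change 0.97 ± 0.09, adjusted p = 8.23e-05). The separation was again complete, and none of these 4 calls was lost in the 15 alternative fits of each comparison. Its counts can include reads of Mir7011, which lies in its exons. At PWK 7 KI libraries had spanned 1269 to 1498 in the cortex and 677 to 879 in the hippocampus, beside WT ranges of 1404 to 1569 and 719 to 844.

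Sema6c, a transmembrane semaphorin that binds class A plexins, was lower. Its hippocampal values at PWK 14 were 776, 718, 652 and 917 in the WT libraries and 332, 454, 393 and 505 in the KI libraries (log2 fold change -0.87 ± 0.15, adjusted p = 0.00524), with no overlap. The change was smaller at PWK 28 in the hippocampus (log2 fold change -0.35 ± 0.10, adjusted p = 0.0303), where 1 KI library lay inside the WT range, and in the cortex, at 533, 664, 502 and 477 in the WT libraries and 409, 472, 332 and 324 in the KI libraries (log2 fold change -0.51 ± 0.14, adjusted p = 0.0293). Both of these calls were lost without single libraries. Sema5b, an integral membrane semaphorin, held 538, 667, 621 and 631 in the WT libraries and 248, 427, 338 and 317 in the KI libraries in the cortex at PWK 14 (log2 fold change -0.91 ± 0.14, adjusted p = 0.00679) and 481, 444, 504 and 499.7 in the WT libraries and 233, 411, 287 and 352 in the KI libraries in the hippocampus at PWK 28 (log2 fold change -0.62 ± 0.15, adjusted p = 0.0173). Sema3f, a secreted ligand of Nrp2, was lower in the cortex at PWK 28, at 217, 189.8, 215 and 261 in the WT libraries and 61.3, 120.3, 69.3 and 86.6 in the KI libraries (log2 fold change -1.42 ± 0.21, adjusted p = 0.00126). No KI library reached the WT range. Sema4f, which was among the hippocampal genes that were lower at both late ages, held 1587, 1660.2, 1594 and 1667 in the WT libraries and 1476, 1222, 1199.6 and 1200.3 in the KI libraries at PWK 14 (log2 fold change -0.36 ± 0.08, adjusted p = 0.0146) and 1508, 1479.7, 1589.9 and 1454 in the WT libraries and 1081, 1126, 1180.4 and 1169 in the KI libraries at PWK 28 (log2 fold change -0.40 ± 0.05, adjusted p = 0.000723).

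Class 3 semaphorins other than Sema3f were higher where they were called. Sema3c held 716, 712, 824 and 867 in the WT libraries and 1094, 1251, 1295 and 1162 in the KI libraries in the hippocampus at PWK 14 (log2 fold change 0.62 ± 0.09, adjusted p = 0.00267). At PWK 28 the ranges overlapped (658 to 825 in WT and 824 to 1001 in KI, log2 fold change 0.33 ± 0.09, adjusted p = 0.024). Sema3a rose in the hippocampus at PWK 28, at 147, 117, 112 and 129 in the WT libraries and 194, 159, 220.3 and 223 in the KI libraries (log2 fold change 0.65 ± 0.14, adjusted p = 0.0105). Its KI libraries stood above all WT libraries, while the cortical WT libraries at that age held 761 to 950. Sema3e was called in the cortex at PWK 28 (log2 fold change 0.53 ± 0.16, adjusted p = 0.0347) and the hippocampus at PWK 14 (log2 fold change 0.52 ± 0.14, adjusted p = 0.0337), with overlapping groups both times. Sema7a, a GPI-anchored semaphorin that promotes axon growth, held 3051, 3214, 3105 and 3684 in the WT libraries and 4256, 3821, 4049 and 3967 in the KI libraries at PWK 14 (log2 fold change 0.30 ± 0.07, adjusted p = 0.0194) and 2592, 2996, 2638 and 2772 in the WT libraries and 3510.3, 3673, 3377 and 2997 in the KI libraries at PWK 28 (log2 fold change 0.30 ± 0.07, adjusted p = 0.0134) in the hippocampus. Smaller changes without overlap were called for 4 further semaphorins. Sema4g was higher in the cortex at PWK 14, at 846, 854, 896 and 955 in the WT libraries and 1013, 1156, 1097 and 1025 in the KI libraries (log2 fold change 0.27 ± 0.07, adjusted p = 0.0459). Sema6b was higher at PWK 28 in the cortex, at 2173, 2537, 2553 and 2539.6 in the WT libraries and 2825, 3037, 3449.8 and 3547 in the KI libraries (log2 fold change 0.39 ± 0.09, adjusted p = 0.00964), and in the hippocampus, at 2514, 2759, 2649.9 and 2446 in the WT libraries and 2962, 2988, 3182 and 3272 in the KI libraries (log2 fold change 0.26 ± 0.05, adjusted p = 0.00843). The others were lower. Sema4c held 429, 389.9, 375 and 442 in the WT libraries and 311, 341, 311 and 306 in the KI libraries in the cortex at PWK 28 (log2 fold change -0.36 ± 0.09, adjusted p = 0.0183). Sema5a held 3724, 4010.4, 3619 and 3924 in the WT libraries and 3132, 3096, 3558 and 2993 in the KI libraries in the hippocampus at PWK 28 (log2 fold change -0.26 ± 0.06, adjusted p = 0.0139).

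The semaphorin receptors Plxna1 and Plxna3 were lower in 3 comparisons each. Plxna3 held 1229, 1466, 1369 and 1319 in the WT libraries and 953, 739, 726 and 934 in the KI libraries in the hippocampus at PWK 14 (log2 fold change -0.69 ± 0.11, adjusted p = 0.00369). In the cortex at PWK 28 it held 1032, 961, 1090 and 1224 in the WT libraries and 579.7, 903, 642 and 656 in the KI libraries (log2 fold change -0.65 ± 0.13, adjusted p = 0.00662). Neither pair of groups overlapped, whereas at PWK 28 in the hippocampus 1 KI library fell within the WT range (log2 fold change -0.60 ± 0.14, adjusted p = 0.0178). Plxna1 held 7689, 7699.9, 6358 and 8720.5 in the WT libraries and 3790.2, 5184, 5596 and 5482 in the KI libraries in the hippocampus at PWK 14 (log2 fold change -0.61 ± 0.13, adjusted p = 0.0164) and 4590.3, 5555, 5003 and 4495 in the WT libraries and 3215, 3840.4, 3082 and 4190.2 in the KI libraries in the cortex at PWK 28 (log2 fold change -0.46 ± 0.10, adjusted p = 0.0109). The hippocampal groups at PWK 28 overlapped (log2 fold change -0.38 ± 0.11, adjusted p = 0.0433).

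Plxna4, a further receptor of class 3 semaphorins, went up in the cortex at PWK 28, at 3999, 4094, 4334 and 4111 in the WT libraries and 7804, 6175, 6657 and 7457 in the KI libraries (log2 fold change 0.76 ± 0.07, adjusted p = 0.000214). At PWK 14 its cortical log2 fold change was 0.39 with adjusted p = 0.173, and KI replicate 1 held 7620.3 against 4131 to 5194 in the other 3 KI libraries. Plxnb1, a receptor of Sema4d, was higher in the hippocampus at PWK 28, at 3834, 4057, 4365 and 3974 in the WT libraries and 5175, 5329, 5324 and 5554 in the KI libraries (log2 fold change 0.40 ± 0.05, adjusted p = 0.000423). In the cortex at PWK 28 Plxnb3 was lower, at 1000.3, 802, 691 and 806 in the WT libraries and 534, 662, 664 and 461 in the KI libraries (log2 fold change -0.51 ± 0.14, adjusted p = 0.0262), as was Plxnc1, which binds Sema7a, with overlapping groups (log2 fold change -0.28 ± 0.09, adjusted p = 0.0395). Of the neuropilins, Nrp2 was higher in the hippocampus at PWK 14, at 3191, 2758, 2776 and 3066 in the WT libraries and 3261, 3553, 4232 and 3491 in the KI libraries (log2 fold change 0.30 ± 0.09, adjusted p = 0.047), and Nrp1 was called nowhere.

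Within the netrin system, Dcc was lower in KI wherever it was called. Hippocampal Dcc at PWK 14 was 1433, 1287, 1564 and 1359 in the WT libraries and 585, 673, 699.9 and 871 in the KI libraries (log2 fold change -1.01 ± 0.12, adjusted p = 0.00129). At PWK 28 it was 1548, 1657, 1489 and 1498 in the WT libraries and 748, 959, 773 and 833 in the KI libraries (log2 fold change -0.91 ± 0.08, adjusted p = 5.98e-05). At both ages the highest KI value stayed under the lowest WT value. In the cortex itself Dcc was 747, 767, 810.1 and 783 in the WT libraries and 405, 561, 409 and 588 in the KI libraries at PWK 28 (log2 fold change -0.68 ± 0.13, adjusted p = 0.00432). At PWK 14 the cortical groups did not overlap either (689.9 to 802 in WT and 419.5 to 644 in KI), and the change of -0.38 was not called (adjusted p = 0.119). The 3 Dcc calls held in all 15 alternative fits of their comparisons.

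Ntn5 was lower in the hippocampus at PWK 14, at 151, 166, 157 and 150.3 in the WT libraries and 77.1, 75.5, 62.2 and 102 in the KI libraries (log2 fold change -0.99 ± 0.17, adjusted p = 0.00527). At the other late time it was not called there (log2 fold change -0.42, adjusted p = 0.106). Ntn3 was higher, with 260, 242, 243 and 233 in the WT libraries and 419, 394, 309 and 307 in the KI libraries in the hippocampus at PWK 14 (log2 fold change 0.53 ± 0.13, adjusted p = 0.0213) and 184, 239.7, 247 and 196 in the WT libraries and 401, 270, 341 and 318 in the KI libraries in the cortex at PWK 28 (log2 fold change 0.61 ± 0.15, adjusted p = 0.0144). Since Ntn3 shares exon sequence with Tbc1d24 on the same strand, its counts are uncertain. Ntn4, a netrin of basement membranes, was lower in the cortex at PWK 14, at 256, 251, 259.8 and 249 in the WT libraries and 161, 193, 170.4 and 221 in the KI libraries (log2 fold change -0.45 ± 0.11, adjusted p = 0.0432). Unc5d, a repulsive netrin receptor, held 975, 946, 1062 and 802 in the WT libraries and 1392, 1650.2, 1273 and 1454 in the KI libraries in the hippocampus at PWK 14 (log2 fold change 0.61 ± 0.10, adjusted p = 0.00555) and 1058, 909, 947 and 939 in the WT libraries and 1531, 1367, 1295 and 1373 in the KI libraries at PWK 28 (log2 fold change 0.53 ± 0.07, adjusted p = 0.000633). The KI libraries were above the WT libraries at both ages. Unc5a was higher by less in the cortex at PWK 28, at 2651, 3062, 2985 and 2821 in the WT libraries and 3219, 3809.9, 3266 and 3407 in the KI libraries (log2 fold change 0.25 ± 0.07, adjusted p = 0.0286).

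Of the 7 Slits and Robo receptors, 2 were called in the cortex at PWK 28, 1 in the hippocampus at PWK 14 and 2 at PWK 28. Slit2 was higher in the cortex at PWK 28, at 1056, 1101, 995 and 1121 in the WT libraries and 1614, 1187, 1611 and 1726 in the KI libraries (log2 fold change 0.51 ± 0.11, adjusted p = 0.00841), and Slit3 lower in the hippocampus with overlapping groups (log2 fold change -0.30 ± 0.08, adjusted p = 0.0291). Robo1, which reads Slits on forebrain axons, was lower in the hippocampus, at 2244, 2065, 2108 and 2278 in the WT libraries and 1128, 1822, 1831 and 1436 in the KI libraries at PWK 14 (log2 fold change -0.51 ± 0.14, adjusted p = 0.0387) and 1840.1, 1801, 1675 and 1699 in the WT libraries and 1288, 1347, 1447 and 1393 in the KI libraries at PWK 28 (log2 fold change -0.36 ± 0.06, adjusted p = 0.00179). The groups were separate at both ages. Robo3 was called in the cortex at PWK 28 (log2 fold change 0.64 ± 0.16, adjusted p = 0.0154) with overlap. Slit1, the most abundant Slit per kilobase, and Robo2 were not called in any of the 8 comparisons.

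In the ephrin-A system, Efna3 was higher in the cortex at PWK 28, at 1189.9, 1379, 1277 and 1456 in the WT libraries and 2913, 2014, 2819 and 2038 in the KI libraries (log2 fold change 0.87 ± 0.13, adjusted p = 0.00141). Efna5 was higher in the cortex at PWK 14, at 688, 765, 693 and 568 in the WT libraries and 917, 943, 843 and 957 in the KI libraries (log2 fold change 0.44 ± 0.09, adjusted p = 0.0228). Each KI library exceeded each WT library in both cases. Epha8 was lower in the cortex at PWK 28, at 207, 186, 151 and 137 in the WT libraries and 35.5, 114, 68.2 and 51.1 in the KI libraries (log2 fold change -1.44 ± 0.31, adjusted p = 0.00833), the lowest fold change of any member. Epha10 changed by less but with a small error, at 2462, 2251, 2331 and 2161 in the WT libraries and 1738, 1708, 1606 and 1593 in the KI libraries (log2 fold change -0.47 ± 0.06, adjusted p = 0.000734). Both receptors were thus lower without overlap in that comparison. Epha5 was higher there, at 2533, 2689, 3194 and 3669 in the WT libraries and 4583, 3679, 4496 and 4022 in the KI libraries (log2 fold change 0.48 ± 0.12, adjusted p = 0.0145), and so was Epha7, at 1939.9, 2130.1, 2101 and 2152 in the WT libraries and 2662, 2276, 2897 and 2810 in the KI libraries (log2 fold change 0.35 ± 0.08, adjusted p = 0.0109). Epha3 was lower in the hippocampus at PWK 28, at 470.3, 473, 449 and 420.5 in the WT libraries and 369, 359, 409 and 336 in the KI libraries (log2 fold change -0.30 ± 0.08, adjusted p = 0.0318). These 3 receptors were separated between the genotypes too. Epha4, the most abundant member per kilobase, was not called in any comparison of KI with WT.

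In the ephrin-B system, Ephb6, a receptor that lacks kinase activity, was higher. In the hippocampus at PWK 14 Ephb6 held 1857, 1970.4, 1827 and 1855 in the WT libraries and 3758, 3030.1, 2963 and 2386 in the KI libraries (log2 fold change 0.67 ± 0.12, adjusted p = 0.00586). At PWK 28 its hippocampal values were 1792, 1769.6, 1789 and 1622 in the WT libraries and 2345, 2016, 2123 and 2018 in the KI libraries (log2 fold change 0.28 ± 0.06, adjusted p = 0.0098). The cortex at PWK 28 held 3728, 4481, 4361 and 4034 in the WT libraries and 8631, 4785, 7241 and 6199.6 in the KI libraries (log2 fold change 0.66 ± 0.15, adjusted p = 0.0107). The KI libraries lay above the WT ones each time, with a wide spread among KI in the cortex. Its relative Ephb2, which binds ephrin-Bs and localizes with NMDA receptors, was lower, at 766, 779, 694 and 798 in the WT libraries and 551, 561, 605 and 682 in the KI libraries in the cortex at PWK 14 (log2 fold change -0.34 ± 0.08, adjusted p = 0.0407), 667, 724, 648 and 615 in the WT libraries and 318, 586, 327 and 474 in the KI libraries at PWK 28 (log2 fold change -0.68 ± 0.18, adjusted p = 0.0205) and 885, 925, 882 and 831 in the WT libraries and 724, 681, 813 and 682 in the KI libraries in the hippocampus (log2 fold change -0.28 ± 0.07, adjusted p = 0.0211). Ephb2 groups did not overlap in any of these, but each call was lost without some library. Ephb3 held 866, 913, 879 and 847 in the WT libraries and 499, 642, 528 and 361 in the KI libraries in the cortex at PWK 28 (log2 fold change -0.82 ± 0.14, adjusted p = 0.00335), and Ephb1 was lower there too, at 1182, 1227, 1176 and 1126 in the WT libraries and 816, 999, 826 and 725 in the KI libraries (log2 fold change -0.49 ± 0.09, adjusted p = 0.00458).

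The ligand Efnb3 was lower in the hippocampus, at 4665, 4262, 3855 and 4096 in the WT libraries and 1999, 2967, 2423 and 3272 in the KI libraries at PWK 14 (log2 fold change -0.68 ± 0.14, adjusted p = 0.0122) and 4777, 4358, 4204 and 4068 in the WT libraries and 3756, 3246, 3803 and 2882 in the KI libraries at PWK 28 (log2 fold change -0.35 ± 0.09, adjusted p = 0.0187), with separate groups. Efnb1 was lower in the cortex at PWK 28, at 411, 385, 442 and 439 in the WT libraries and 315, 329, 341 and 355 in the KI libraries (log2 fold change -0.32 ± 0.09, adjusted p = 0.0246), and Efnb2 was not called.

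**Figure D4:**
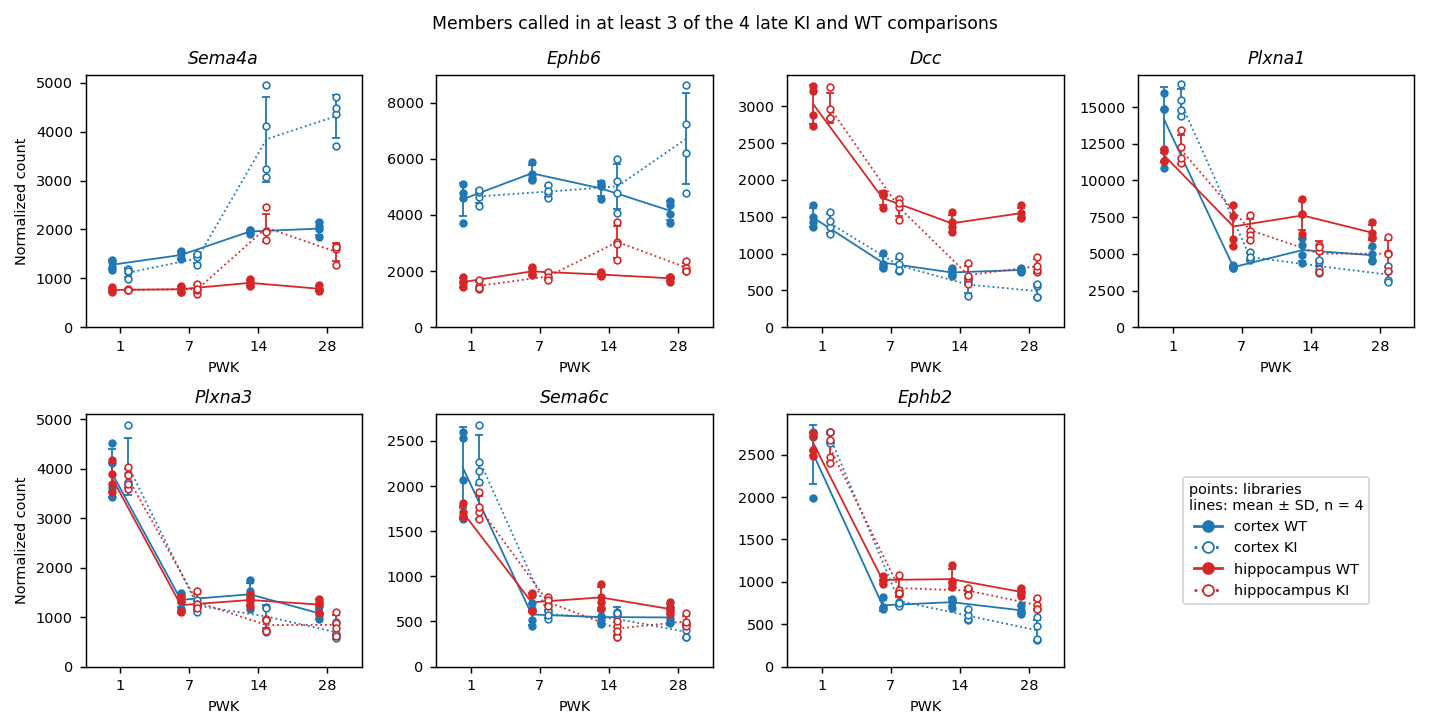
Normalized counts (vertical axes, linear from 0) against PWK 1, 7, 14 and 28 (horizontal axes, evenly spaced) for the 7 genes called in at least 3 of the 4 late comparisons, cortex in blue and hippocampus in red, WT filled with solid lines and KI open with dotted lines, points for libraries and lines for the mean ± SD of 4. None is called up to PWK 7, and at the later ages KI lies above WT for Sema4a and Ephb6 and below it for the other 5 where they are called.

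Not every call held when 1 library was left out, and below KI 2 stands for KI replicate 2. In the cortex at PWK 14, 2 of 6 calls (Sema4a and Sema5b) passed without any single library, as did 18 of 26 at PWK 28, 10 of 16 in the hippocampus at PWK 14 and 12 of 20 at PWK 28. The calls lost in the cortex at PWK 14 were Efna5 (without KI 2 or WT 1 or 3, adjusted p up to 0.0666), Ephb2 (without KI 1, 2 or 3 or WT 1, 2, 3 or 4, adjusted p up to 0.114), Ntn4 (without KI 1, 2 or 3 or WT 1, 2, 3 or 4, adjusted p up to 0.118) and Sema4g (without KI 2, 3 or 4 or WT 1, 2, 3 or 4, adjusted p up to 0.137). Those lost in the cortex at PWK 28 were Efnb1 (without KI 1 or WT 1, 3 or 4, adjusted p up to 0.0758), Ephb2 (without KI 3 or WT 1 or 2, adjusted p up to 0.0592), Plxnb3 (without KI 1 or 4 or WT 1, 2 or 4, adjusted p up to 0.0747), Plxnc1 (without KI 1, 2 or 4 or WT 3 or 4, adjusted p up to 0.113), Sema3e (without KI 1, 3 or 4 or WT 1, 2, 3 or 4, adjusted p up to 0.0896), Sema4c (without WT 1 or 4, adjusted p up to 0.0612), Sema6c (without KI 3 or 4 or WT 1, 2 or 3, adjusted p up to 0.0816) and Unc5a (without KI 4 or WT 1, 3 or 4, adjusted p up to 0.0812).

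Hippocampal calls lost at PWK 14 without a library were Nrp2 (without KI 2, 3 or 4 or WT 1, 2, 3 or 4, adjusted p up to 0.126), Ntn3 (without KI 2 or WT 2 or 4, adjusted p up to 0.0619), Plxna1 (without WT 1, 2 or 4, adjusted p up to 0.0519), Robo1 (without KI 4 or WT 1, 2, 3 or 4, adjusted p up to 0.102), Sema3e (without KI 2 or 3 or WT 1, 2, 3 or 4, adjusted p up to 0.0961) and Sema7a (without WT 1, 2 or 3, adjusted p up to 0.0678). Those lost at PWK 28 in the hippocampus were Efnb3 (without WT 1, adjusted p up to 0.0614), Epha3 (without KI 1, 2 or 4 or WT 1, 2 or 3, adjusted p up to 0.0918), Ephb2 (without WT 1 or 2, adjusted p up to 0.0639), Plxna1 (without KI 1, 3 or 4 or WT 1, 2, 3 or 4, adjusted p up to 0.123), Plxna3 (without WT 1 or 3, adjusted p up to 0.0532), Sema3c (without KI 2 or 4 or WT 2 or 4, adjusted p up to 0.068), Sema6c (without KI 1, 2 or 4 or WT 1, 2 or 3, adjusted p up to 0.0886) and Slit3 (without KI 1, 3 or 4 or WT 1, 2 or 3, adjusted p up to 0.0862). The sign of the change was kept in each of these fits.

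Whether KI acted differently in the 2 regions was tested by the difference between the hippocampal and the cortical KI effect, given as the hippocampal minus the cortical log2 fold change. At PWK 14, 5 members were called, 3 higher and 2 lower in the hippocampus, beside 2.85% of all genes (1.64% higher and 1.20% lower), and at PWK 28, 9 members, 4 higher and 5 lower, beside 4.57% (2.39% and 2.18%). The smallest p at PWK 14 was that of Sema3c (difference of log2 fold changes 0.87 ± 0.12, adjusted p = 0.00112), higher in KI in the hippocampus, whose cortical libraries spanned 820.2 to 969 in KI and 958 to 1126 in WT. The largest difference was that of Ntn5 (-1.78 ± 0.33, adjusted p = 0.0102). Its cortical values at PWK 14 were 55, 68.5, 82.8 and 63 in the WT libraries and 99.4, 140.2, 72 and 178 in the KI libraries, against the lower hippocampal KI values given above. Unc5d (0.67 ± 0.16, adjusted p = 0.0339), Ephb6 (0.67 ± 0.16, adjusted p = 0.0403) and Unc5a (-0.44 ± 0.10, adjusted p = 0.0339) completed the list. Without hippocampal KI replicate 1, which stood apart, all 5 were still called among 6.

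At PWK 28 Plxna4 differed most by p (-0.74 ± 0.10, adjusted p = 0.000684), higher in KI in the cortex and at 7373, 7629, 6929 and 7379 in the WT libraries and 6931, 8522, 7314 and 6978 in the KI libraries in the hippocampus. Slit2 (-0.67 ± 0.14, adjusted p = 0.0121), Efna3 (-0.70 ± 0.16, adjusted p = 0.0173), Epha5 (-0.55 ± 0.15, adjusted p = 0.0443) and Sema3f (1.41 ± 0.30, adjusted p = 0.0128) had been called in the cortex alone. Sema4f (-0.39 ± 0.07, adjusted p = 0.00423), Sema7a (0.49 ± 0.12, adjusted p = 0.0259), Sema3a (0.66 ± 0.18, adjusted p = 0.0402) and Plxnb1 (0.42 ± 0.11, adjusted p = 0.0412) had been called in the hippocampus alone. Without cortical WT replicate 2, which stood apart, 8 members were called, with Epha5 and Plxnb1 lost.

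Of these differences between the regions, the calls lost when single libraries were left out were Ephb6 (without CTX KI 2, 3 or 4, CTX WT 1, 2, 3 or 4, HP KI 2 or 3 or HP WT 1, 2, 3 or 4, adjusted p up to 0.0798), Unc5a (without CTX KI 2 or 4, CTX WT 1, 2, 3 or 4 or HP WT 1, 2 or 4, adjusted p up to 0.0729) and Unc5d (without CTX KI 2 or 3, CTX WT 1, 2 or 3 or HP WT 1, 2 or 4, adjusted p up to 0.0717) at PWK 14, and Epha5 (without CTX KI 1, 3 or 4, CTX WT 1, 2 or 3, HP KI 1, 2 or 4 or HP WT 1, 2 or 4, adjusted p up to 0.0918), Plxnb1 (without CTX KI 3 or 4, CTX WT 1, 2 or 4, HP KI 1, 2, 3 or 4 or HP WT 1, 2 or 4, adjusted p up to 0.0895), Sema3a (without CTX KI 1, CTX WT 1, 3 or 4, HP KI 1, 3 or 4 or HP WT 2, 3 or 4, adjusted p up to 0.0834) and Sema7a (without CTX KI 4, CTX WT 1, HP KI 1 or 2 or HP WT 1 or 3, adjusted p up to 0.0597) at PWK 28, with CTX for cortex and HP for hippocampus. The counts moved with single libraries: at PWK 14 they ran from 2 to 9 and at PWK 28 from 5 to 19 when 1 library was left out. The lowest PWK 14 count came without cortical KI replicate 2, cortical WT replicate 1, 2 or 3, or hippocampal WT replicate 1 or 2, it was 3 without cortical KI replicate 3 or 4, cortical WT replicate 4 or hippocampal WT replicate 4, 8 without hippocampal KI replicate 4 and 9 without cortical KI replicate 1. At PWK 28 it was 5 without cortical WT replicate 1 or hippocampal KI replicate 1 and 19 without cortical KI replicate 2.

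The change of the KI effect from PWK 14 to PWK 28 was called for no member in either region (limma), with 13 members in the cortex and 9 in the hippocampus at an unadjusted p under 0.05 beside 15.1% and 12.4% of all genes, and for 0% of all genes in the cortex and 0% in the hippocampus. The larger number of calls in the cortex at PWK 28 than at PWK 14 therefore goes with no called difference for any single member with all libraries fitted. Without cortical KI replicate 1 at PWK 14 there were 5 calls, and without cortical KI replicate 2 at PWK 28 there were 6. In the hippocampus 2 were called without KI replicate 4 at PWK 14. Without either of the libraries that stood apart, 0 were called in the region it belongs to.

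**Figure D5:**
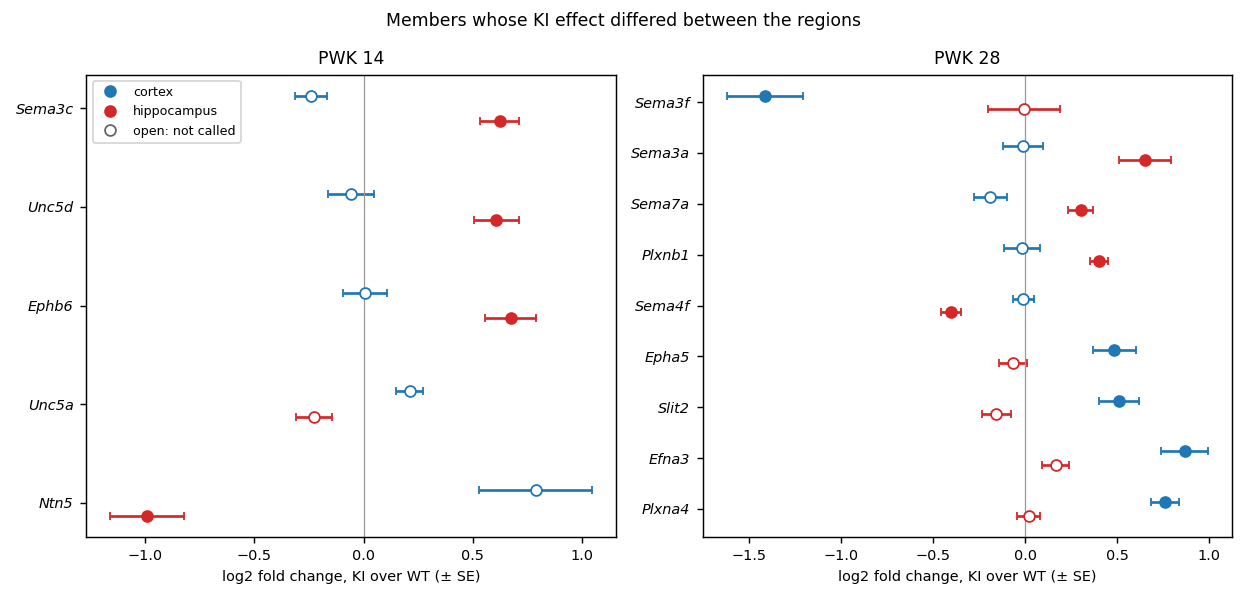
Log2 fold change of KI over WT ± SE in cortex (blue) and hippocampus (red) for the members whose KI effect differed between the regions at PWK 14 (left) and PWK 28 (right), 4 libraries per group, filled where the region's own comparison was called and open where it was not. At PWK 14 Ntn5 lies above 0 in the cortex and below it in the hippocampus, and at PWK 28 Sema3f and Plxna4 are filled in the cortex alone.

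Genes that act below or beside these receptors were counted from 2 lists. Of 51 cytoskeletal and kinase genes that carry signals from guidance receptors, 14 rose and 32 fell in WT cortex from PWK 1 to PWK 7. In the hippocampus 14 rose and 28 fell. Of all genes 32.5% rose and 32.7% fell in the cortex, and 30.9% and 30.4% in the hippocampus. The collapsin response mediators Dpysl3 and Dpysl5 led the fall in the cortex (-5.51, adjusted p = 6.5e-12 and -4.94, adjusted p = 1.04e-11 on the log2 scale), and the Rac regulators Chn1 (1.50, adjusted p = 1.27e-09) and Kalrn (1.48, adjusted p = 1.15e-09) led the rise. In KI, 0 were higher and 4 lower in the cortex at PWK 14, 2 and 13 at PWK 28, 4 and 4 in the hippocampus at PWK 14, and 7 and 6 at PWK 28, against the shares of all genes given above. Within this list the genes lower in the cortex at PWK 28 included Dpysl5 (-0.85, adjusted p = 0.00451), Farp1 (-0.71, adjusted p = 0.00101) and Dab1 (-0.69, adjusted p = 0.00635). The actin-severing protein gene Cfl1 was higher at PWK 28 in the cortex (0.54, adjusted p = 0.00184) and hippocampus (0.29, adjusted p = 0.00113) and at PWK 14 in the hippocampus (0.34, adjusted p = 0.0193), and Limk1, whose product phosphorylates cofilin, at PWK 28 in both (0.48, adjusted p = 0.00147 and 0.28, adjusted p = 0.0077). Ngef, the exchange factor ephexin that binds EphA4, was lower in the cortex at PWK 14 (-0.51, adjusted p = 0.00143) and the hippocampus at PWK 28 (-0.25, adjusted p = 0.00493).

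Of 29 further cues and coreceptors outside the chosen families, 6 rose and 15 fell from PWK 1 to PWK 7 in WT cortex and 8 rose and 13 fell in the hippocampus, led by the fall of the cue Draxin (-3.92, adjusted p = 2.76e-07 and -3.83, adjusted p = 6.33e-10). In KI, 1 was higher and 2 lower in the cortex at PWK 14, 6 and 7 at PWK 28, 1 and 5 in the hippocampus at PWK 14 and 6 and 3 at PWK 28. The shares of all genes called in either direction were 65.3% and 61.3% for the WT comparisons and 5.18%, 22.2%, 15.6% and 15.8% for those of KI. The HGF receptor gene Met had the highest fold change, in the cortex at PWK 28 (1.66, adjusted p = 0.00339). The receptor tyrosine kinase Kit was lower in all 4 (-0.52, adjusted p = 0.034 and -0.91, adjusted p = 0.000482 in the cortex, -0.58, adjusted p = 0.00356 and -0.26, adjusted p = 0.0149 in the hippocampus). Plxdc1, a plexin domain protein, was higher in 3 (0.85, adjusted p = 0.01 and 1.25, adjusted p = 0.00021 in the cortex, 0.78, adjusted p = 0.000966 in the hippocampus), and Rtn4, which encodes the myelin inhibitor Nogo, was lower in the cortex (-0.36, adjusted p = 0.0314 and -0.49, adjusted p = 0.00135).

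Markers of other cell types were also called between the genotypes at the same ages. Of all genes, 5.18% and 22.2% were called in the cortex at PWK 14 and 28, and 15.6% and 15.8% in the hippocampus. A single call among 5 or 6 markers lies near the larger of these shares. Of 6 astrocyte markers, 2 were higher and 1 lower in KI in the cortex at PWK 14, 1 and 2 at PWK 28, and 2 and 3 were higher with none lower in the hippocampus. Their summed level was 136778 to 163258 normalized counts in WT and 208529 to 309747 in KI in the hippocampus at PWK 14, and 138137 to 147534 and 191564 to 222642 at PWK 28, without overlap. The highest KI sum at PWK 14 was that of replicate 1, which stood apart, and the other KI libraries held 208529 to 217873. Microglial markers numbered 0 called in the cortex at PWK 14, 1 of 5 higher at PWK 28, 0 in the hippocampus at PWK 14 and 3 of 5 higher at PWK 28, with sums of 6567 to 7679.7 in WT and 8458 to 8890.1 in KI in that last comparison. Pericyte and fibroblast markers were higher for 3, 2, 2 and 2 of 5 in cortex at PWK 14 and 28 and hippocampus at PWK 14 and 28. Of 5 interneuron markers, 3 were higher and 1 lower in the cortex at both ages, and 1 and 2 were higher in the hippocampus. The CA1 pyramidal marker sum was 16564 to 18241 in WT and 12846 to 14779 in KI hippocampus at PWK 14 and 14822 to 16263 and 12727 to 15628 at PWK 28, overlapping only at the later age. The CA3 sum was lower in KI hippocampus without overlap at both ages, at 6828 to 7595 in WT and 4297 to 6162 in KI and then 6312 to 7244 and 4721 to 6257. In the cortex at PWK 14 endothelial markers summed to 3597 to 3833 in WT and 2408 to 2879 in KI. Red blood cell markers summed to 5388 to 6098 and 2075 to 4190.3 in the cortex at PWK 28. Sums also lay apart between the genotypes for interneurons (higher in KI in the cortex at both ages and the hippocampus at PWK 28), Cajal-Retzius cells (higher in the cortex at PWK 14 and the hippocampus at PWK 28), pericytes and fibroblasts (higher in the cortex at PWK 28 and the hippocampus at PWK 14), oligodendrocyte precursors (higher in the hippocampus at PWK 28), and the dentate granule list (lower in the cortex at both ages) and CA1 list (higher in the cortex at PWK 28) outside their own region. Of single genes, oligodendrocyte markers had 1 of 6 called, in the hippocampus at PWK 28. The part of these cell types in the changes of Sema4a, Dcc, Ephb6 and the other members was not tested.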

How the data were processed

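RNA was sequenced from frontal cortex and hippocampus of KI and WT mice at PWK 1, 7, 14 and 28, with 4 libraries in each of 16 groups taken from the labels. The deposited table holds a normalized signal per gene: per the labels and the study's methods, the authors estimated transcript abundance with Salmon on GRCm38, summed it to genes and divided the counts by DESeq2 size factors over all libraries. The submitters' processing notes name Salmon 0.11.2, R 3.6.0 and DESeq2 1.19.11, whereas the study's methods name later versions of all of these. Such values are not whole counts, and the raw depth cannot be read from them.

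Ensembl identifiers were matched to GENCODE vM21 symbols for 18420 of 18432 genes. Comparisons used limma-trend (limma 3.58.1, R 4.3.3) on log2(value + 1) of the compared libraries, for genes with a mean of at least 1, with Benjamini-Hochberg adjustment over all genes tested and a threshold of 0.05. Differences of effects were fitted as interactions over 16 libraries. The script was tested on simulated data. Levels were compared between genes only per kilobase of exon. Tables and figures were made with Python 3.11.15, pandas 2.3.3, numpy 2.4.6 and matplotlib 3.10.9. Named in the text were all called members in each comparison of KI with WT, with library values for all of them that did not overlap (the cap of 8 per direction was not applied), up to 8 per direction in WT comparisons, up to 6 per interaction and up to 4 per direction in each further list. The 3 last members of the regional difference at PWK 28 were added after their values were seen, as was the comparison of maturation between regions. Other pseudocounts, filters, scaling, weights, a replicate block, a fit of all 64 libraries and leaving out single libraries were tried. The members were taken by symbol alone, but the set of families to describe and the further lists were proposed with earlier results of these data known. Each library was taken to come from 1 mouse, in which case p-values of comparisons within a region measure the spread between mice. Comparisons across regions use both tissues of the same mice as if independent. Their p-values therefore mix the spread within and between mice.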

Additional observations from a re-analysis of the deposited data

Results flagged for a closer look

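In 4 of the 136 groups of library values tested, 1 library lay far from the other 3 by Dixon's test, which flags about 1 group in 20 by chance. Ephb6 was lowest in hippocampal WT replicate 4 at PWK 28, at 1622 normalized counts against 1770 to 1792. Sema4c was highest in cortical KI replicate 2 at PWK 28, at 341 against 306 to 311. Sema4f was highest in hippocampal KI replicate 1 at PWK 14, at 1476 against 1199.6 to 1222, and that library also stood apart by its glial markers. Sema6b was lowest in cortical WT replicate 1 at PWK 28, at 2173 against 2537 to 2553.

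The effect of KI differed between hippocampus and cortex by a test of the difference itself. As the hippocampal minus the cortical log2 fold change at PWK 14, Sema3c differed by 0.87, Unc5d by 0.67, Ephb6 by 0.67, Unc5a by -0.44 and Ntn5 by -1.78. At PWK 28 the differences were 1.41 for Sema3f, 0.66 for Sema3a, 0.49 for Sema7a and 0.42 for Plxnb1, and -0.74 for Plxna4, -0.70 for Efna3, -0.67 for Slit2, -0.55 for Epha5 and -0.39 for Sema4f. The WT change from PWK 1 to PWK 7 differed between the regions for Slit1 by 1.88, Plxna4 by 1.05, Epha7 by 1.00, Unc5c by 0.73, Sema3c by -0.94 and Plxnd1 by -1.38.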

How the results depend on the processing

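Of 7466 alternative values of the 476 gene results, none reversed and 600 lost the call. The counts of members called moved by more than 1.5 times as follows. A fit of all 64 libraries gave 15 in the cortex and 26 in the hippocampus for KI against WT at PWK 14, 15 and 12 for WT at PWK 28 against PWK 7, 12 and 15 for the regional difference of the KI effect at PWK 14 and 28, and 6 for its change with age in the cortex. The regional difference at PWK 14 gave 3 with each library scaled to its total and 13 with sample quality weights, which also gave 7 for the change with age in the cortex. The same regional difference also moved by more than 1.5 times with a replicate block, as given below. Scaling to the total moved the share of calls that were higher from 50% to 75% in the cortex at PWK 14, from 59.1% to 69% for hippocampus against cortex at PWK 1 and from 60% to 33.3% for the regional difference at PWK 14. The causes were not tested.

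Left-out libraries gave ranges of 2 to 6 members in KI cortex at PWK 14, 19 to 30 at PWK 28, 10 to 20 in KI hippocampus at PWK 14 and 14 to 21 at PWK 28. For WT from PWK 1 to PWK 7 they were 58 to 62 in the cortex and 54 to 58 in the hippocampus, and from PWK 7 to PWK 28 they were 20 to 25 and 18 to 27. Between WT regions they were 39 to 48, 44 to 48, 46 to 53 and 48 to 54 from PWK 1 to PWK 28. Interactions gave 2 to 9 and 5 to 19 for the regions at PWK 14 and 28, 0 to 6 and 0 to 2 for the ages in cortex and hippocampus and 24 to 30 for maturation.

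Replicate numbers did not pair the libraries throughout: 17 of 32 same-numbered cortex and hippocampus pairs correlated above 0.1 (mean 0.14 against -0.05 for other numbers, 19 best with their own number), among them all 4 of WT at PWK 1 and of KI at PWK 28, as did 10 of 32 KI and WT pairs and 5 of 24 pairs of ages. With a replicate block, the regional difference gave 8 members at PWK 14 and 13 at PWK 28, 4 and 8 of them called without the block. The comparisons of KI with WT gave 5 and 29 in the cortex at PWK 14 and 28 and 12 and 18 in the hippocampus. Precision is limited by 4 libraries a group and, for Epha1, Efna4 and early Ntn5, by low counts.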
